A study of Mus musculus with 6 samples.

Results

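The F-box genes examined here were 64 of the 18193 genes that the arrays measured with a probe set of a single gene symbol. They were taken by name, as every symbol that begins with Fbxw, Fbxl or Fbxo and a number, leaving out Fbxo30, Fbxo31 and Fbxo32. They carried 106 of the 45101 probe sets, each a set of short oligonucleotides against one transcript. By the repeats that bind the substrate, 18 were Fbxw genes with WD repeats, 17 were Fbxl genes with leucine-rich repeats and 29 were Fbxo genes with other domains, and 63 were protein coding. The remaining one, Fbxl12os, is annotated by RefSeq as a transcribed pseudogene and fits the name rule only.

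The study asked how estradiol changes the transcriptome of skeletal muscle in female mice that lack ovaries. C57BL/6 mice were ovariectomized at 4 months and carried for 60 days either a pellet with 0.18 mg of 17β-estradiol (OVX + E2, 3 arrays) or a placebo pellet (OVX, 3 arrays). All 6 samples therefore came from ovariectomized animals, and there were no arrays of mice with ovaries. The sources used here do not say whether the 3 arrays of a group held RNA of 3 mice, so p-values speak for the spread between these samples alone, and part or all of that spread may be technical. The tissue is soleus in the study and left ventricle in the sample labels. Among 16 markers of skeletal muscle 14 reached the brightest 5% of probe sets, and among 11 heart markers 0 did, so by its markers the tissue was skeletal muscle.

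F-box proteins are the exchangeable part of the SCF ubiquitin ligases. Skp1 holds the F-box to the scaffold Cul1, Rbx1 brings the conjugating enzyme that carries ubiquitin, and the rest of the F-box protein binds the substrate, often after the substrate has been phosphorylated or has bound a sugar or a cofactor. Each F-box protein so decides which proteins a ligase marks, commonly for the proteasome. In muscle the family is best known through Fbxo32 (atrogin-1), which is induced in wasting muscle and is not one of the genes counted here.

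Differences are OVX + E2 minus OVX on the log2 scale, and a gene's value on an array is the mean of all its probe sets. In OVX + E2 compared with OVX, the F-box genes were split almost evenly, with 34 of 64 (53.1%) below 0 and 30 above it, and 53.8% of all genes were below 0. Their median difference was -0.02, against -0.01 over all genes, and single genes ranged from -0.26 (Fbxw7) to 0.12 (Fbxo16). At an unadjusted p under 0.05 in limma, 5 F-box genes were lower with E2, where 9.78% of all genes were, and 7 were higher, where 5.15% of all genes were. No gene on the arrays passed an adjusted p of 0.05 (limma, Benjamini-Hochberg over all genes), and the 12 F-box genes had adjusted p-values between 0.269 and 0.333. The p-values given for single genes are those of limma before adjustment. At the study's threshold, an unadjusted p of 0.001 or less, 2 of the 106 F-box probe sets passed, 1 of Fbxw7 and 1 of Fbxw11, both lower, and 0.213% of all probe sets passed. At the level of genes Fbxw7 alone passed it, where 0.319% of all genes did. Both genes are also in the list of probe sets that the study drew from these arrays, so their calls are not independent evidence. The values of the 3 arrays of each group did not overlap in 6 genes that were lower and in 10 that were higher, where 12.3% and 10.6% of all genes had such groups. With each array left out in turn, 4 to 11 genes were lower (11 without the second OVX array), 3 to 4 were higher, and 0 to 1 of the F-box probe sets passed 0.001. In single genes an exact two-sided permutation test of 3 arrays against 3 cannot go below 0.1.

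**Figure D1:**
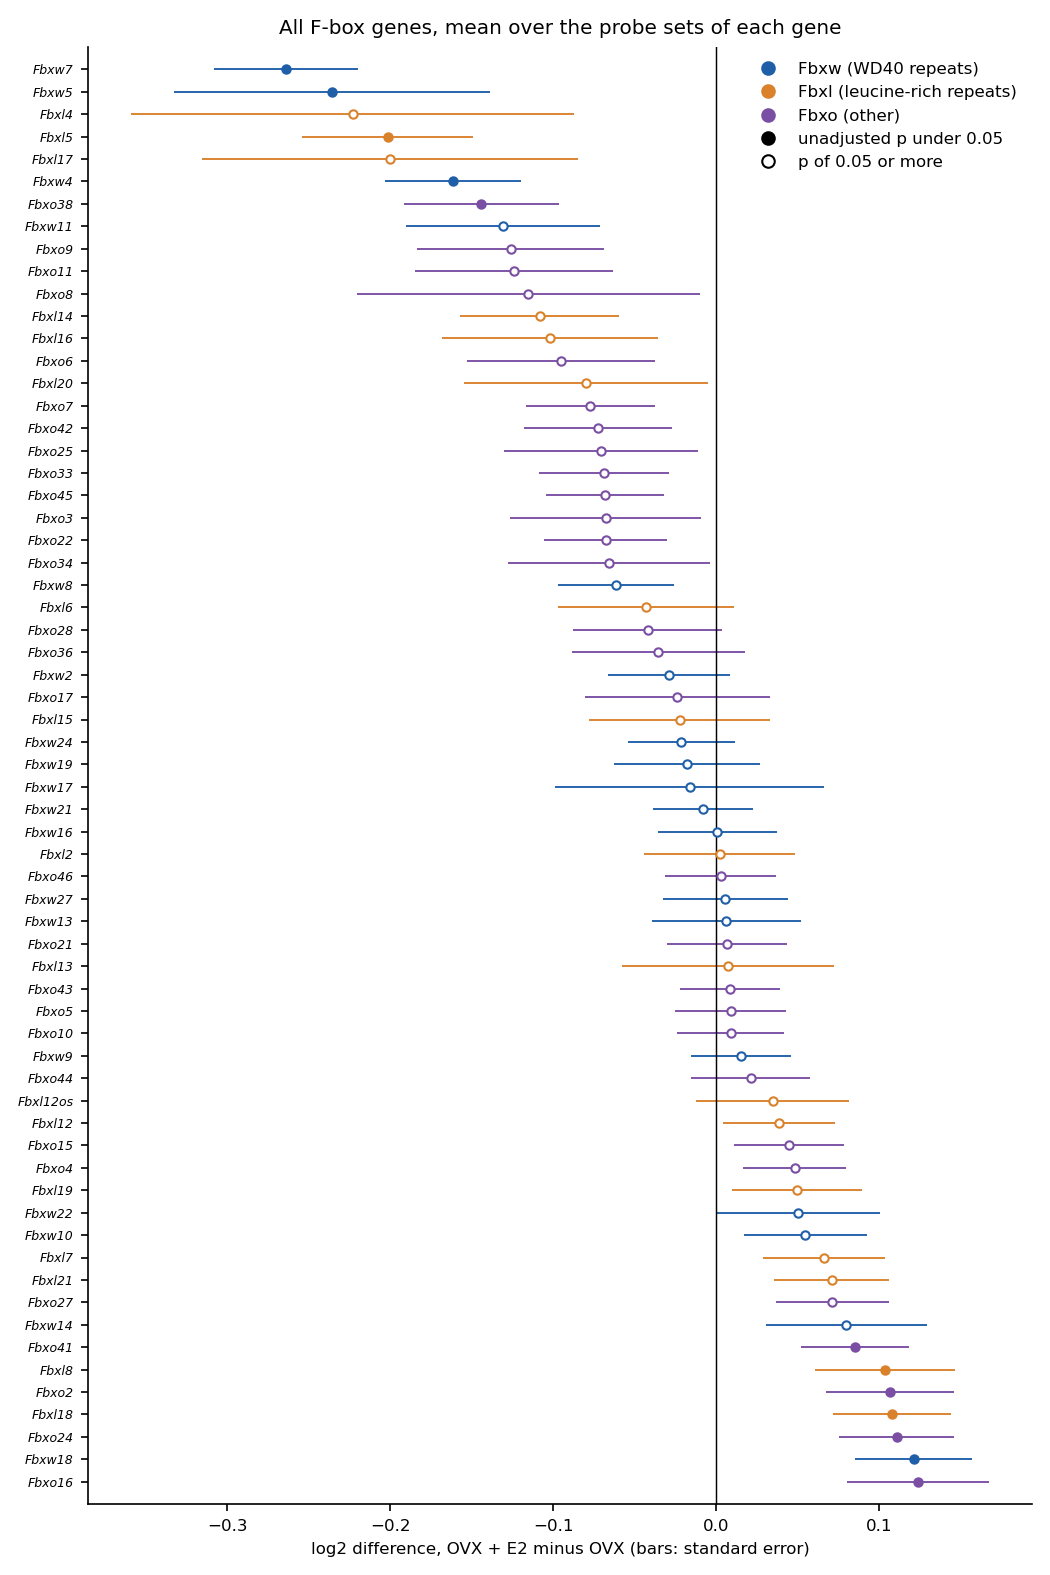
Difference of OVX + E2 minus OVX (x axis, log2) with its standard error for each of the 64 F-box genes, sorted, with colour for the subfamily and filled points for an unadjusted p under 0.05. The 5 filled points at the top lie between -0.26 and -0.14 and the 7 at the bottom between 0.09 and 0.12.

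Fbxw7 showed the clearest difference of the family. It is the receptor that hands phosphorylated cyclin E, Myc, Jun and the active form of Notch to the SCF ligase. Its log2 values were 8.38, 8.53 and 8.48 in OVX + E2, against 8.73, 8.71 and 8.74 in OVX. The highest OVX + E2 array was below the lowest OVX array, and the OVX arrays lay within a few hundredths of each other. The mean was 8.46 ± 0.08 in OVX + E2 and 8.73 ± 0.02 in OVX (SD, n = 3 each), a difference of -0.26 (SE 0.04, unadjusted p = 0.000591 and adjusted p = 0.269), or 0.83 of the OVX level. Its 2 probe sets moved alike, by -0.27 (unadjusted p = 0.00027) and -0.25 (unadjusted p = 0.00472). The first is of a kind that can bind several transcripts. Without such probe sets the Fbxw7 difference was -0.25 (unadjusted p = 0.00425), which does not reach 0.001. With each array left out in turn the difference stayed between -0.30 and -0.22 with p under 0.05, and without both arrays numbered 3 it was -0.27. Of the 12 F-box genes that passed at 0.05, it is the only one that kept its call under all 18 alternatives in normalization, filter, model and arrays that were run. Leaving out the control probe sets, which is among the 18, could not change a gene's result, since these probe sets entered no gene's mean.

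RefSeq (GRCm38.p6) has 3 start sites for Fbxw7 in the promoter table, and the arrays' gene value does not tell them apart. Their last 30 bases before the start are shown because the gene had the smallest unadjusted p of the members, with CG pairs in capitals. They lie on the plus strand at chr3:84815547-84815576, chr3:84864115-84864144 and chr3:84952181-84952210.
Fbxw7 start 1: ctgcagggacccaggaagagaaaaagCGgt
Fbxw7 start 2: atttgttttcatttttacctaggtaCGaga
Fbxw7 start 3: atataattgatgtgcagtctgcattgctga
Over the full windows of 250 bases before to 50 after the start, the GC content was 69.0%, 29.7% and 46.0%, and the ratio of observed to expected CG pairs was 0.67, 0.15 and 0.38. The windows were 37.5% to 50.3% identical in pairwise global alignment, so the 3 starts have unlike sequence around them. None held the estrogen response element GGTCANNNTGACC or its arm GGTCA on either strand.

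Of the other 4 genes that were lower, Fbxl5 is the iron-sensing receptor that removes iron regulatory protein when iron is sufficient. Its values were 8.72, 8.62 and 8.61 in OVX + E2, against 8.86, 8.77 and 8.93 in OVX, with no overlap and a difference of -0.20 (SE 0.05, unadjusted p = 0.00632). Fbxw4, the gene disrupted in the mouse limb mutant dactylaplasia, had 8.74, 8.63 and 8.74 in OVX + E2, against 8.90, 8.85 and 8.85 in OVX, with no overlap either and a difference of -0.16 (SE 0.04, unadjusted p = 0.00616). Both kept their call when any 1 array was left out. After cyclic loess, which removes a difference that depends on brightness, Fbxl5 differed by -0.08 (unadjusted p = 0.112) and Fbxw4 by -0.04 (unadjusted p = 0.464).

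Fbxo38, a receptor studied in motor neurons and T cells, had 7.79, 7.76 and 7.71 in OVX + E2, against 7.98, 7.89 and 7.82 in OVX. The groups stood apart, and the difference was -0.14 (SE 0.05, unadjusted p = 0.0196). It was -0.12 without the third OVX + E2 array (unadjusted p = 0.0638) and -0.10 without the first OVX array (unadjusted p = 0.0581). Fbxw5, which has been described as a receptor for both Cul1 and Cul4 ligases, had 8.66, 8.59 and 8.41 in OVX + E2, against 8.70, 8.69 and 8.99 in OVX. The groups did not overlap, but the lowest OVX + E2 and the highest OVX value both belonged to arrays numbered 3. Its difference of -0.24 (SE 0.10, unadjusted p = 0.0452) was -0.14 without the third OVX array, -0.17 without the third OVX + E2 array and -0.07 without both (unadjusted p = 0.168). Fbxw5 also lost its call without the second OVX + E2 array, at -0.26 (unadjusted p = 0.073).

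**Figure D2:**
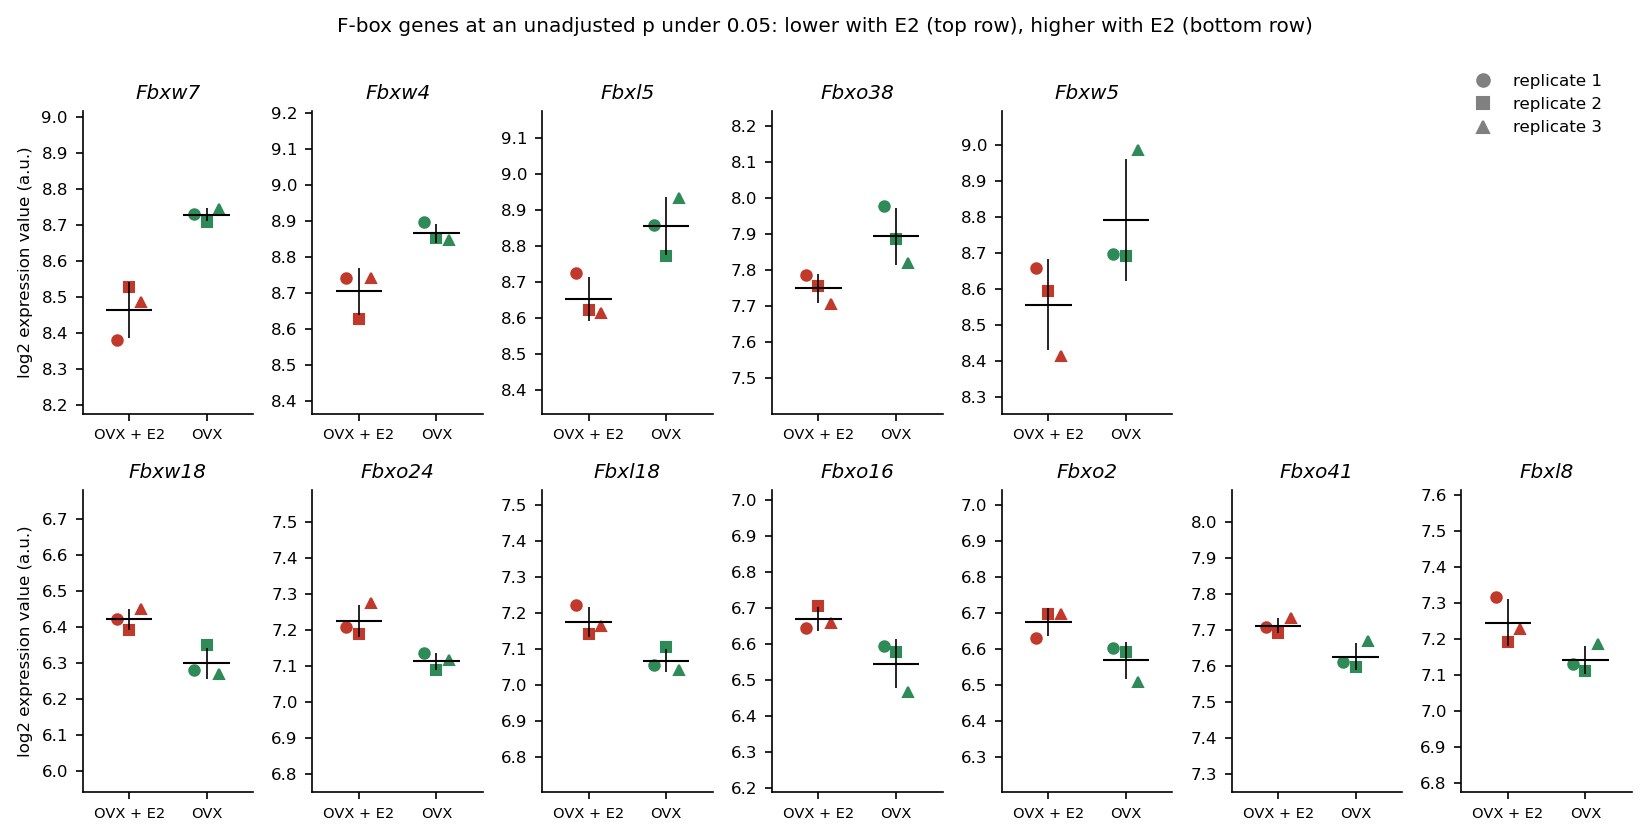
Log2 values (y axis, arbitrary units) on each array for the 12 F-box genes with an unadjusted p under 0.05, OVX + E2 in red and OVX in green, with a horizontal line at the mean and a vertical line for the SD (n = 3 each); every panel spans the same log2 range. The groups do not overlap in any of the 12 genes, and the gap is widest in Fbxw7.

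The 7 genes that were higher with E2 had mean log2 values between 6.36 (Fbxw18) and 7.67 (Fbxo41), 3 of them under 7, and their differences were at most 0.12. Fbxw18, a WD-repeat gene of a rodent cluster described below, had 6.42, 6.39 and 6.45 in OVX + E2, against 6.28, 6.35 and 6.27 in OVX, a difference of 0.12 (SE 0.04, unadjusted p = 0.0117). Fbxo24, which male mice need for normal sperm, had 7.21, 7.19 and 7.28 in OVX + E2, against 7.14, 7.09 and 7.12 in OVX, a difference of 0.11 (SE 0.04, unadjusted p = 0.0167). In both genes every OVX + E2 array was above every OVX array. Fbxl18, known from human cells to bring another F-box protein, FBXL7, to degradation, had 7.22, 7.14 and 7.16 in OVX + E2, against 7.06, 7.11 and 7.04 in OVX, a difference of 0.11 (SE 0.04, unadjusted p = 0.0202).

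Fbxo41, a neuronal F-box protein, had 7.71, 7.69 and 7.73 in OVX + E2, against 7.61, 7.60 and 7.67 in OVX, a difference of 0.09 (SE 0.03, unadjusted p = 0.0387). After cyclic loess its difference was 0.12 (unadjusted p = 0.00921). With median centring it was 0.07 (unadjusted p = 0.0962). Fbxo41 kept its call without the third OVX array, at 0.11 (unadjusted p = 0.0213). It lost the call without any other single array, at 0.0712 to 0.095 (unadjusted p from 0.0527 to 0.111). Fbxo2, which binds high-mannose sugars on misfolded glycoproteins in neurons, differed by 0.11 (unadjusted p = 0.0307), Fbxo16 by 0.12 (unadjusted p = 0.025) and Fbxl8 by 0.10 (unadjusted p = 0.0482). All 7 lost their call under at least 1 alternative, and without both arrays numbered 3 only Fbxl8 stayed.

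The direction of a gene followed its brightness, in the F-box genes as over the whole array. Among the 12 F-box genes with a mean log2 value of 8 or more, 11 were below 0 and 4 were lower at p under 0.05, with a median of -0.13. Of all genes that bright, 92.1% were below 0 and 32.4% were lower, with a median of -0.12. Among the 22 F-box genes under 7, 4 were below 0 and 3 were higher at p under 0.05, and of all genes that dim 30.7% were below 0 and 7.95% were higher. The single bright exception, chosen after its values were seen, was Fbxw22, which had 8.35, 8.42 and 8.37 in OVX + E2 and 8.43, 8.31 and 8.25 in OVX, overlapping groups with a difference of 0.05 (unadjusted p = 0.354). In Fbxw7 the difference went past the median of its brightness range (-0.13, over the 782 genes between 8.5 and 9) by -0.13, in Fbxl5 by -0.07 and in Fbxw4 by -0.03.

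These directions depended on the scaling between arrays. After cyclic loess 39 of the 64 F-box genes and 50.1% of all genes were below 0, in place of 34 of the 64. After quantile normalization 7 of the 12 bright F-box genes and 11 of the 22 dim ones were below 0, and after cyclic loess 9 and 12 were. With each array centred on its median, 11 of the bright and 12 of the dim genes were below 0. Over all 64 genes, cyclic loess left Fbxw7 as the only one lower (-0.15, unadjusted p = 0.0121), where 3.35% of all genes were, and 6 higher, where 4.07% were. The 6 were Fbxo41, Fbxw22, Fbxw18, Fbxo24, Fbxl18 and Fbxo27.

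**Figure D3:**
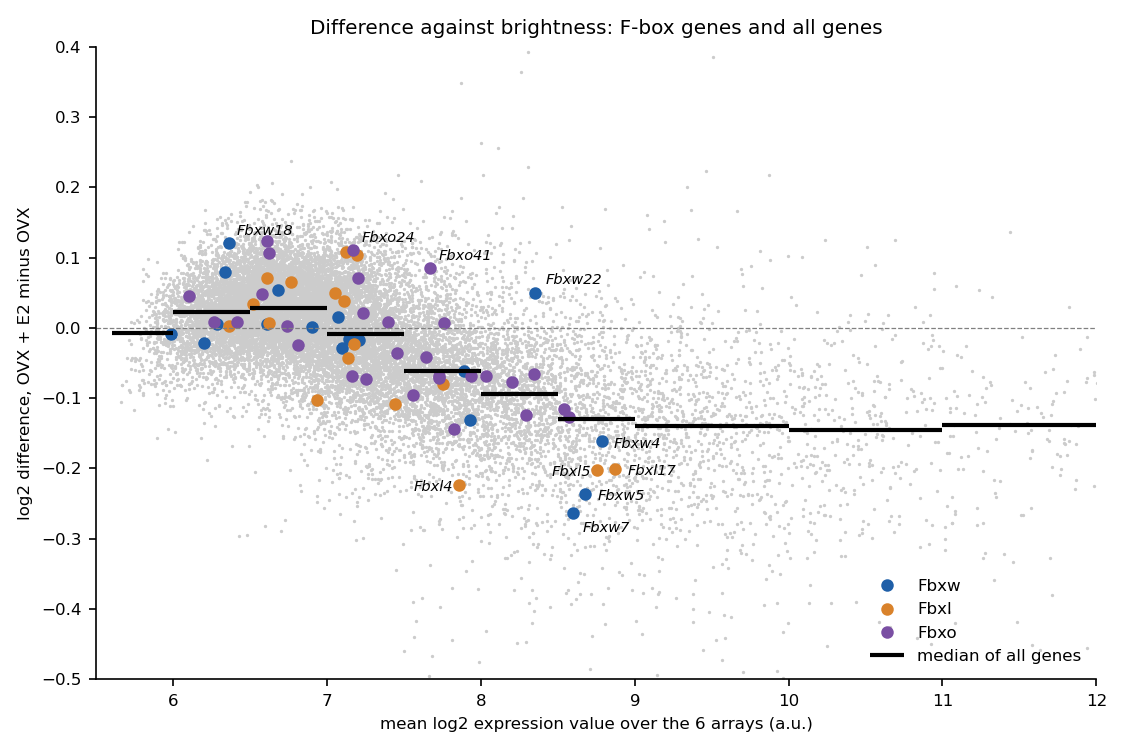
Difference of OVX + E2 minus OVX (y axis, log2) against the mean log2 value over the 6 arrays (x axis, arbitrary units; the axes are cut at 12 and at -0.5 and 0.4) for all genes in grey and the F-box genes in colour, with black bars for the median of all genes in each brightness range. The black bars are at 0.03 between 6.5 and 7 and at -0.13 between 8.5 and 9, and Fbxw7 lies below its bar.

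Counts were also taken by subfamily, and differences between the 3 were not tested. Over all genes 9.78% were lower and 5.15% higher. Of the Fbxw genes 10 of 18 were below 0, with 3 lower and 1 higher at p under 0.05 and a median of -0.01. Of the Fbxl genes 8 of 17 were below 0, with 1 lower and 2 higher and a median of 0.00. Of the Fbxo genes 16 of 29 were below 0, with 1 lower and 4 higher and a median of -0.04. The lower Fbxw genes were Fbxw7, Fbxw4 and Fbxw5, all among the 5 brightest members.

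Within Fbxw, 9 members sit in a cluster on chromosome 9 (Fbxw13, Fbxw14, Fbxw16, Fbxw18, Fbxw19, Fbxw21, Fbxw22, Fbxw24 and Fbxw27), a group of related genes that expanded in rodents. Their median log2 value was 6.36, against 7.89 for the other 9 Fbxw genes, and only Fbxw22 was above 8. In the cluster 3 of 9 were below 0, with a median difference of 0.01, and outside it 7 of 9 were, with a median of -0.06. After quantile normalization 5 of the 9 cluster genes were below 0, and after cyclic loess or median centring 6 were. Probes for such related genes may bind transcripts of more than one of them, so single values in the cluster are uncertain.

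The promoters of the cluster held fewer CG pairs than those of the other members. Promoters of 47 members were in the RefSeq table (66 windows, 250 bases before to 50 after each start, GRCm38.p6). The median ratio of observed to expected CG pairs was 0.06 in the 7 windows of 6 cluster genes, 0.71 in the 59 windows of the other members, and 0.38 over all 32851 promoters of the table. The cluster windows ranged from 0.00 to 0.20 and the others from 0.15, at the second start of Fbxw7, to 1.17. Of 15 pairs of cluster genes the windows were 67.8% to 89.4% identical. The 120 bases before the start are shown for 2 cluster genes, Fbxw18 and Fbxw16 (chr9:109702701-109702820 and chr9:109449141-109449260, minus strand), and for a member outside it, Fbxw11 (chr11:32642435-32642554, plus strand), with CG pairs in capitals, to show the difference in CG content.
Fbxw18: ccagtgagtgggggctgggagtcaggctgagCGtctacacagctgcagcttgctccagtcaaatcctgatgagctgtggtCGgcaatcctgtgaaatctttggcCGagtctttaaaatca
Fbxw16: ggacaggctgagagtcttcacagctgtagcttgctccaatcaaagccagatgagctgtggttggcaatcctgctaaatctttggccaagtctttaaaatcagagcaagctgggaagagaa
Fbxw11: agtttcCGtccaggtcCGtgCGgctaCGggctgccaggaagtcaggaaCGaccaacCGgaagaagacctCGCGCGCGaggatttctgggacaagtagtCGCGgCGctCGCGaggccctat
The stretches hold 3, 0 and 15 CG pairs. Fbxw18 and Fbxw16, whose full windows were 77.3% identical, share most of their letters at a shift, and Fbxw11 is unlike them. On the arrays the dim Fbxw18 was higher with E2 and Fbxw16, at 6.86, 6.94 and 6.91 in OVX + E2 and 6.86, 6.93 and 6.92 in OVX, had a difference of 0.00 (unadjusted p = 0.985).

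Letters of an estrogen response element were searched in the 66 windows on both strands. The full element GGTCANNNTGACC was in 0 of them and in 0.07% of all promoters. The single arm GGTCA, of which the full element holds a facing pair, was in 18 (27.3%) and in 40.5% of all promoters. The GC box GGGCGG was in 38 (57.6%) and in 35.7% of all promoters, and the TATA box TATAAA in 1 (1.52%), a window of Fbxw7, and in 13.6% of all promoters. Among the genes higher with E2, Fbxl18 had 2 such arms facing each other. They had 4 bases between them, 1 more than in the full element. Of the 32851 promoters 6 hold a pair at this spacing (0.0183%). The spacing was taken from this sequence once it had been seen, and facing arms at further spacings were not counted. How unusual such a pair is was therefore not tested. The pair starts 106 bases before the gene start. The stretch around it, at chr5:142895323-142895352 on the minus strand, is shown with both arms in capitals.
Fbxl18: aagagactGGTCActcgTGACCttctggac
A match of letters is a description of the window and was not tested for binding.

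Of the 64 genes, 23 had more than 1 probe set. All probe sets were lower in 8 of these genes and higher in 4, and in 11 the signs were mixed. Fbxw11, also called beta-TrCP2, brings phosphorylated IκB and β-catenin to the ligase and was the one gene with 5 probe sets all lower, from -0.23 to -0.03. Its brightest had 9.92, 9.94 and 9.88 in OVX + E2, against 10.10, 10.14 and 10.20 in OVX, without overlap, and a difference of -0.23 (SE 0.04, unadjusted p = 0.000853). That probe set is of the kind Affymetrix marks as able to bind other transcripts as well. The mean over its 5 probe sets had overlapping groups, 7.83, 7.95 and 7.81 in OVX + E2 and 7.95, 7.93 and 8.10 in OVX, and a difference of -0.13 (unadjusted p = 0.0642).

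Fbxo3, which acts on another F-box protein, Fbxl2, spread most over its probe sets, from -0.24 on the brightest to 0.04 on a dim one. The brightest had 9.73, 9.88 and 9.32 in OVX + E2 and 9.91, 9.63 and 10.13 in OVX, and these overlap. Fbxw2 had 7 probe sets, of which 5 were below 0, between -0.14 and 0.05. In 14 of the 23 genes the brightest probe set had a lower difference than the dimmest, and in the other 9 it did not. Leaving out the probe sets that can bind several transcripts left the counts at 5 genes lower and 7 higher.

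**Figure D4:**
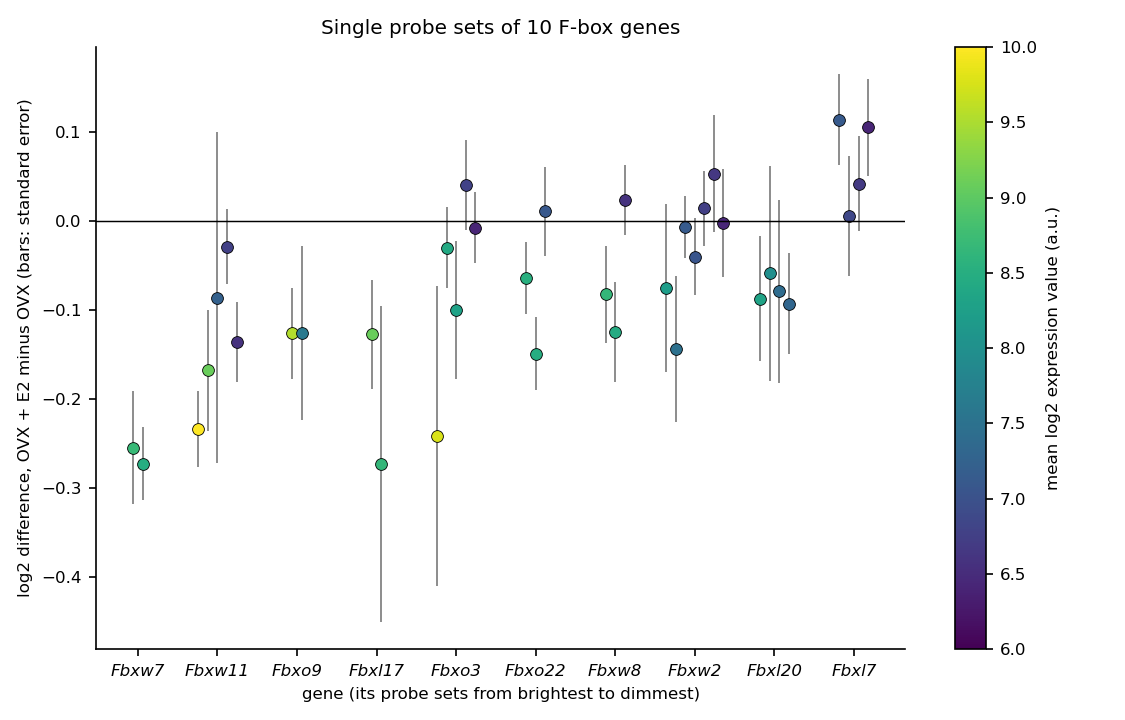
Difference of OVX + E2 minus OVX (y axis, log2) with its standard error for each probe set of 10 F-box genes, ordered within a gene from bright to dim and coloured by mean log2 value. The 2 probe sets of Fbxw7 lie at -0.27 and -0.25, and those of Fbxo3 span -0.24 to 0.04.

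In Fbxl17 and Fbxl4 a large difference rested on 1 array. Fbxl17, which checks that BTB-domain proteins pair correctly, was the brightest member and had 8.86, 8.81 and 8.65 in OVX + E2, against 8.84, 8.84 and 9.24 in OVX. The groups overlapped, with 1 high OVX array, and the difference of -0.20 (unadjusted p = 0.127) was -0.07 without that array and -0.01 without both arrays numbered 3. Fbxl4, a mitochondrial outer membrane protein that restrains mitophagy, had 7.81, 7.70 and 7.73 in OVX + E2, against 7.88, 7.73 and 8.30 in OVX. Again the third OVX array alone was high, and the difference of -0.22 (unadjusted p = 0.145) was -0.06 without it. Without the second OVX array the Fbxl4 difference was -0.34 (unadjusted p = 0.029).

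Over the 64 genes, 19 had their lowest value on the third OVX + E2 array, where 26.7% of all genes did, and 19 their highest on the third OVX array, where 23.1% did. Of the 12 bright members 5 were lowest on the third OVX + E2 array and 9 highest on the third OVX array. The shares over all genes that bright were not counted, so these counts have no like comparison. These 2 arrays stood at opposite ends of the first principal component of all genes (-24.8 for the third OVX + E2 array and 25.6 for the third OVX array, others between -3.32 and 4.66, 48.4% of the variance). They also differed most in the mean of 14 fast-fibre genes, which was at -1.13 from its average on the third OVX + E2 array and at 0.80 on the third OVX array. The mean of the 14 ranged from 10.99 to 12.34 in OVX + E2 and from 12.22 to 12.91 in OVX. All 14 were among the top 5% of probe sets, and 4 were lower at p under 0.05 and 0 higher. Of all genes at 8 or more 32.4% were lower. Of 12 slow-fibre genes, also all in the top 5%, 0 were lower and 0 higher. The part of the fibre genes in the F-box differences was not tested. The Fbxw7 difference was -0.27 without both arrays and -0.26 with them. In such bulk samples fewer fibres of a type and less RNA per fibre cannot be told apart.

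**Figure D5:**
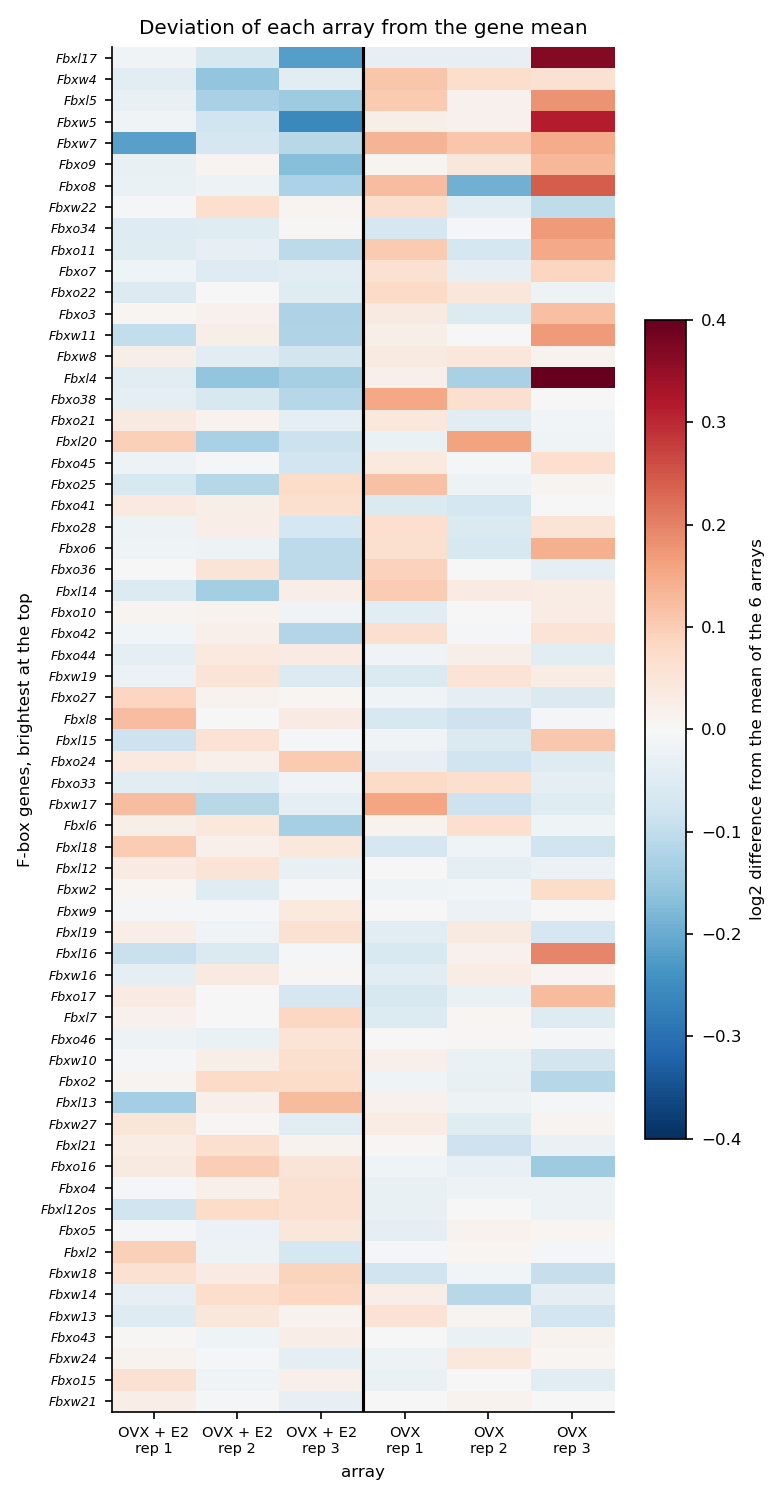
Deviation of each array from the mean of the 6 arrays (colour, log2) for the 64 F-box genes, sorted by brightness, with the OVX + E2 arrays on the left and the OVX arrays on the right. The rows at the top are bluer on the left and redder on the right, and Fbxl17, Fbxw5 and Fbxl4 are darkest on the third OVX array.

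Fbxo21, Fbxl21, Fbxl4, Fbxo7, Fbxl5 and Fbxw8 had been listed for a role in muscle or in the clock. Only Fbxl5 of these passed the test. The list was made by hand, and members outside it may have such roles too. Fbxo21, a FoxO-induced ligase part of wasting mouse muscle, had 7.80, 7.77 and 7.72 in OVX + E2 and 7.80, 7.72 and 7.75 in OVX, a difference of 0.01 (SE 0.04, unadjusted p = 0.861). Fbxl21, which acts on the cryptochromes of the clock, had 6.64, 6.67 and 6.62 in OVX + E2 and 6.61, 6.53 and 6.58 in OVX, narrowly apart, with a difference of 0.07 (unadjusted p = 0.0853). Fbxo7, which works with parkin in mitophagy, differed by -0.08 (unadjusted p = 0.0918) and Fbxw8, a partner of Cul7 that acts on insulin receptor substrate, by -0.06 (unadjusted p = 0.129). Both of these were above 0 after quantile normalization or cyclic loess.

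Of the next genes by p, Fbxl14, which acts on Snail in epithelial cells, had 7.39, 7.30 and 7.47 in OVX + E2 and 7.54, 7.47 and 7.47 in OVX, groups that just failed to overlap, with a difference of -0.11 (unadjusted p = 0.0624). Fbxo9, a regulator of mTOR signalling in human cells, differed by -0.13 on each of its 2 probe sets (unadjusted p = 0.0631 for the gene). Fbxo27 belongs to a group of related receptors with Fbxo2, Fbxo6, Fbxo17 and Fbxo44, of which some, but not all, read sugars on glycoproteins. Of these 5 genes 2 were below 0, Fbxo6 and Fbxo17, 1 passed the test (Fbxo2, higher), and Fbxo27 differed by 0.07 (unadjusted p = 0.0803).

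The other 38 members, with mean log2 values from 5.99 to 8.54, had 20 genes below 0 and 18 above it, differences between -0.12 and 0.08, and no unadjusted p under 0.0818. In 24 of them the difference was smaller than 0.05 in size, and in 37 the groups overlapped. The exception was Fbxo4, a receptor linked to cyclin D1 in human cells, which had 6.57, 6.60 and 6.64 in OVX + E2, against 6.55, 6.56 and 6.56 in OVX, a gap of about a hundredth and a difference of 0.05 (unadjusted p = 0.173). The most negative was Fbxo11, which hands Bcl6 to the ligase in B cells, with 8.24, 8.26 and 8.19 in OVX + E2, against 8.39, 8.22 and 8.44 in OVX, a difference of -0.12 (unadjusted p = 0.0818). Its second OVX array lay among the OVX + E2 arrays. Fbxo8 had 8.51, 8.52 and 8.41 in OVX + E2 and 8.66, 8.35 and 8.78 in OVX, and its OVX arrays held both the lowest and the highest of the 6 values.

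Fbxo5 and Fbxo43, the inhibitors Emi1 and Emi2 of the anaphase-promoting complex, had mean log2 values of 6.41 and 6.26 and differences of 0.01 each (unadjusted p = 0.807 for Fbxo5 and 0.795 for Fbxo43). Fbxo15, a marker of mouse embryonic stem cells, had a mean of 6.10, in the lowest 3.41% of all genes, and a difference of 0.04 (unadjusted p = 0.225). Among the genes with 4 probe sets, those of Fbxl20 were all below 0, from -0.09 to -0.06, and those of Fbxl7 all above it, from 0.00 to 0.11. Neither gene passed the test, with unadjusted p = 0.321 for Fbxl20 and 0.119 for Fbxl7.

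The parts of the SCF ligase that F-box proteins bind were measured beside them. Cul1, the scaffold, had 8.91, 8.87 and 8.84 in OVX + E2, against 8.97, 8.92 and 9.06 in OVX, a difference of -0.11 (unadjusted p = 0.0443). Skp1, the adaptor, differed by 0.03 (unadjusted p = 0.535) and Rbx1, the RING subunit, by 0.08 (unadjusted p = 0.183), both with overlapping groups. After cyclic loess Cul1 was on the other side of 0 (0.02, unadjusted p = 0.613) and Skp1 was higher (0.18, unadjusted p = 0.0202). Over 30 genes of 5 lists (the core, the Nedd8 pathway that activates cullins, cullin exchange, the COP9 signalosome that removes Nedd8, and the conjugating enzymes), 27 were below 0, 7 were lower and 0 higher at p under 0.05, and the median was -0.11. These genes were bright, with a median log2 value of 8.68, against 7.18 for the F-box genes, and of all genes at 8 or more 32.4% were lower. After quantile normalization 15 of the 30 were below 0 and after cyclic loess 18, with 0 lower and 1 higher in each. With single arrays left out, 2 (without the third OVX + E2 or the first OVX array) to 16 (without the second OVX array) were lower.

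Cdc34, the conjugating enzyme that extends ubiquitin chains on SCF substrates, had 10.60, 10.51 and 10.45 in OVX + E2, against 10.68, 10.81 and 10.80 in OVX, a difference of -0.24 (SE 0.05, unadjusted p = 0.00244). Nedd8 differed by -0.12 (unadjusted p = 0.00684) and Ube2r2, the close relative of Cdc34, by -0.27 with overlapping groups (unadjusted p = 0.0227). After cyclic loess none of these 3 passed, with Cdc34 at -0.10 (unadjusted p = 0.0899), Ube2r2 at -0.17 (unadjusted p = 0.0868) and Nedd8 above 0 at 0.03 (unadjusted p = 0.537). The other F-box genes with different names were also measured, and of 7 only Kdm2b passed (-0.12, unadjusted p = 0.0449, and -0.09 with unadjusted p = 0.145 after cyclic loess), while Btrc, the sister gene of Fbxw11, differed by -0.06 (unadjusted p = 0.13) and Skp2 by 0.06 (unadjusted p = 0.097). Of the 3 genes left out by the rule, Fbxo31 differed by -0.27 (unadjusted p = 0.0747), Fbxo32 by -0.15 (unadjusted p = 0.302) and Fbxo30 by 0.01 (unadjusted p = 0.899).

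Substrate receptors of other cullins were measured on the same arrays. Of 33 Klhl genes, the receptors of Cul3, 23 were below 0, with 1 lower and 1 higher at p under 0.05 and a median of -0.03. Of 14 Dcaf genes, receptors of Cul4, 13 were below 0, with 3 lower and 1 higher and a median of -0.07. Over all genes 9.78% were lower and 5.15% higher. After cyclic loess 20 of the Klhl and 10 of the Dcaf genes were below 0, with 1 lower in each family, and with single arrays left out 0 (without the first OVX + E2 array) to 5 (without the second OVX array) Klhl genes and 1 (without either array numbered 3) to 4 Dcaf genes were lower. The differences between these families and the F-box genes were not tested.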

How the data were processed

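RNA of 3 OVX + E2 and 3 OVX samples was hybridized to Affymetrix Mouse Genome arrays, 1 array a sample. The authors used background correction, vsn and median polish (R 2.14.2 in the submitters' notes), and the deposited values are log2 expression values in arbitrary units, which compress differences of dim probe sets. Arrays have no read depth, and their number limits the precision.

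From these values, with no further normalization, limma 3.58.1 in R 4.3.3 (lmFit, eBayes, two-sided, no covariate) was fitted over all 45101 probe sets and, on the mean of each gene's probe sets, over all 18193 genes. Symbols came from the platform annotation, where 34958 probe sets had 1 symbol, 932 several (2 of F-box genes, not used) and 9211 none. All 64 members were found by Entrez identifier in the RefSeq table, with 0 symbols changed. The fits were tested on simulated data. Named members were those in the study's gene table, the 8 with the smallest p in each direction and the 5 brightest. They also included the 3 with the largest SD and the 3 with the widest spread over probe sets. A hand-made list of members with roles in muscle or the clock completed the rule. Fbxw22, Fbxw16, Fbxo4, Fbxo5, Fbxo6, Fbxo8, Fbxo11, Fbxo15, Fbxo17, Fbxo43, Fbxo44, Fbxl7 and Fbxl20 are outside this rule and were picked once their values were known. Members and lists were chosen with earlier results of these data known. Alternatives covered scaling, filter, variance model, array weights, the replicate number, single arrays and the choice of probe set. Fbxo40 and Fbxl22 were not analysed here.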

Additional observations from a re-analysis of the deposited data

How the results depend on the processing

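The 2 F-box probe sets at the limit of 0.001 were 1 after quantile normalization or in the brighter part of the probe sets (above the median level), and 0 after cyclic loess, with an intensity trend of the variance, without both arrays numbered 3 or without probe sets that bind several transcripts; leaving out each array in turn gave 0 to 1. The 5 genes lower at p under 0.05 were 1 after quantile normalization or cyclic loess, 8 with median centring, array weights or the probe set of the largest interquartile range, and 9 with the brightest probe set; leaving out each array gave 4 to 11, the 11 without the second OVX array. The 7 genes higher were 4 with median centring or the probe set of the largest interquartile range, 2 among brighter probe sets and 1 without both arrays numbered 3; leaving out each array gave 3 to 4. The genes below 0 ranged from 32 of 64 (without the third OVX array) to 45 of 64 (with median centring). Among brighter probe sets they were 32 of the 45 measured. The median of -0.02 was -0.0669 among brighter probe sets, where the median over all genes was -0.0535. The cause of these shifts was not tested.

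Differences that changed sign were small. Fbxo3 was 0.0042 after quantile normalization and 0.0204 without both arrays numbered 3, Fbxo7 0.0258 and 0.0117 and Fbxw8 0.0167 and 0.0026 after quantile normalization and cyclic loess, Fbxw2 0 without the third OVX array (lowest with a single array left out -0.0451, without the first OVX array), and Fbxo21 -0.0099 with median centring, -0.0089 without the first OVX + E2 array, -0.0122 without the second OVX array and -0.0339 on its brightest probe set (highest with a single array left out 0.0291, without the first OVX array). Of 428 values of 24 named genes under 18 alternatives, 337 kept their direction and their side of 0.05, 63 lost the call and 17 gained it. The 337 include the values without control probe sets, which could not differ from those of the main fit.

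Deviations of same-numbered arrays from their group means correlated at -0.13, -0.20 and -0.34. Arrays with different numbers were not compared, so these values cannot decide whether same-numbered arrays were processed together. With the replicate number as a block, 0 probe sets passed 0.001, 4 genes were lower and 3 higher.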
